A study of Mus musculus with 6 samples.

Results

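The genes described here are 10 genes through which keratinocytes signal inflammation or receive death signals: the interleukin 1 family genes Il1a, Il1b, Il1rn, Il18 and Il33, the cytokine genes Tslp and Tnfsf18, the death receptor gene Fas, and the NF-κB feedback genes Nfkbia and Tnfaip3. They were chosen by name but with earlier results of these data known, so their shares below are not those of a set picked blind. All 10 are among the 24354 genes of the deposited table. Expression was measured by RNA sequencing in basal epidermal cells sorted for high surface α6 integrin from E18.5 mouse epidermis, late in gestation. The 3 WT libraries were compared with 3 libraries of the genotype Pik3caH1047R/H1047R (called mutant below), homozygous for an activating variant of the catalytic subunit of phosphoinositide 3-kinase. All 6 samples carry the strain label C57BL6. Not given in the sources used here: which cells of the embryo carry the variant, what drives it, and how many embryos went into a sample. The labels do not tie the 3 libraries of a group to different animals; p-values therefore reflect the spread between these libraries alone, and that spread may be technical.

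Keratinocytes are a source of cytokines as well as a barrier. Interleukin 1α and interleukin 1β bind the same receptor and activate NF-κB, interleukin 1 receptor antagonist (Il1rn) occupies that receptor without signalling, and interleukin 33 and TSLP act on receptors of innate and T lymphoid cells. Fas triggers apoptosis when bound by its ligand, and the product of Tnfsf18 is the ligand of the T cell costimulatory receptor encoded by Tnfrsf18. NF-κB factors are held in the cytoplasm by inhibitors such as IκBα (Nfkbia), which NF-κB itself induces, and A20 (Tnfaip3) shuts the upstream kinase complexes down.

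The values are FPKM, fragments per kilobase of transcript and scaled to a library total, so levels of different genes can be compared per length. The values of a library summed to between 656761 and 767148 FPKM in WT and between 538627 and 651769 FPKM in mutant libraries. The totals of the groups thus did not overlap. Read numbers (not given in the sources used here) would be needed to know absolute depth, which is unknown. Keratin mRNAs of basal cells were high in both groups, with Krt5 between 11360.5 and 13033 FPKM and Krt14 between 7792 and 10682 FPKM. Among 9 basal keratinocyte genes, 5 were lower in mutant libraries (Itga6, Itgb4, Col17a1, Dst and Lamb3), where 22.8% of all tested genes were. Itga6, the gene of the α6 integrin used for the sort, had a log2 difference of -0.41 (limma adjusted p = 0.00146). Its call and that of Col17a1 ended with libraries scaled to the same total FPKM (adjusted p = 0.546 and 0.868). Krt15 was higher (log2 difference 0.49, limma adjusted p = 0.0153), and 3 did not pass (Krt5, Krt14 and Trp63). The call of Krt15 changed in 5 of 17 alternative settings. Krt5 and Trp63 were called higher with libraries scaled to the same total FPKM (adjusted p = 0.00313 and 0.025). Of 9 suprabasal keratinocyte genes, 5 were higher, among them Krt1 (3.85-fold), where 23.2% of all tested genes were. Of the rest, 1 was lower (Lor, log2 difference -1.29, limma adjusted p = 0.0155) and 3 did not pass (Krtdap, Sbsn and Ivl). Krtdap was called higher with libraries scaled to the same total FPKM (adjusted p = 0.000973). The summed level of the 9 suprabasal genes was between 3864.8 and 4667.3 FPKM in WT libraries, against 11764.8 to 14364.5 FPKM in the mutant ones. Its part in the differences described below was not tested. These are bulk samples, in which fewer cells of a type and less RNA per cell cannot be told apart.

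Of the 10 genes, 9 reached a mean of 1 FPKM over the 6 libraries and were tested; Il18 did not. In the limma fit across all 11385 tested genes, 7 of the 9 were lower in mutant libraries at a Benjamini-Hochberg adjusted p under 0.05 and 0 were higher, where 46% of all tested genes were called, 22.8% as lower and 23.2% as higher. The median difference of the 9 genes, mutant minus WT, was -0.97 on the log2(FPKM + 1) scale, beside 0.01 for all tested genes. The mutant values lay below all WT values for 8 of the 9 genes, beside 26.9% of all tested genes with groups apart in that direction and 56% in either. Il1rn and Nfkbia did not pass the test. When each library was scaled to the same total FPKM, the median difference of all genes moved to 0.30, and 6 of the 9 genes were called lower beside 7.35% of all genes; the call that ended was that of Tnfaip3. Of all called genes, 50.5% were higher as deposited and 86.5% with that scaling.

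**Figure D1:**
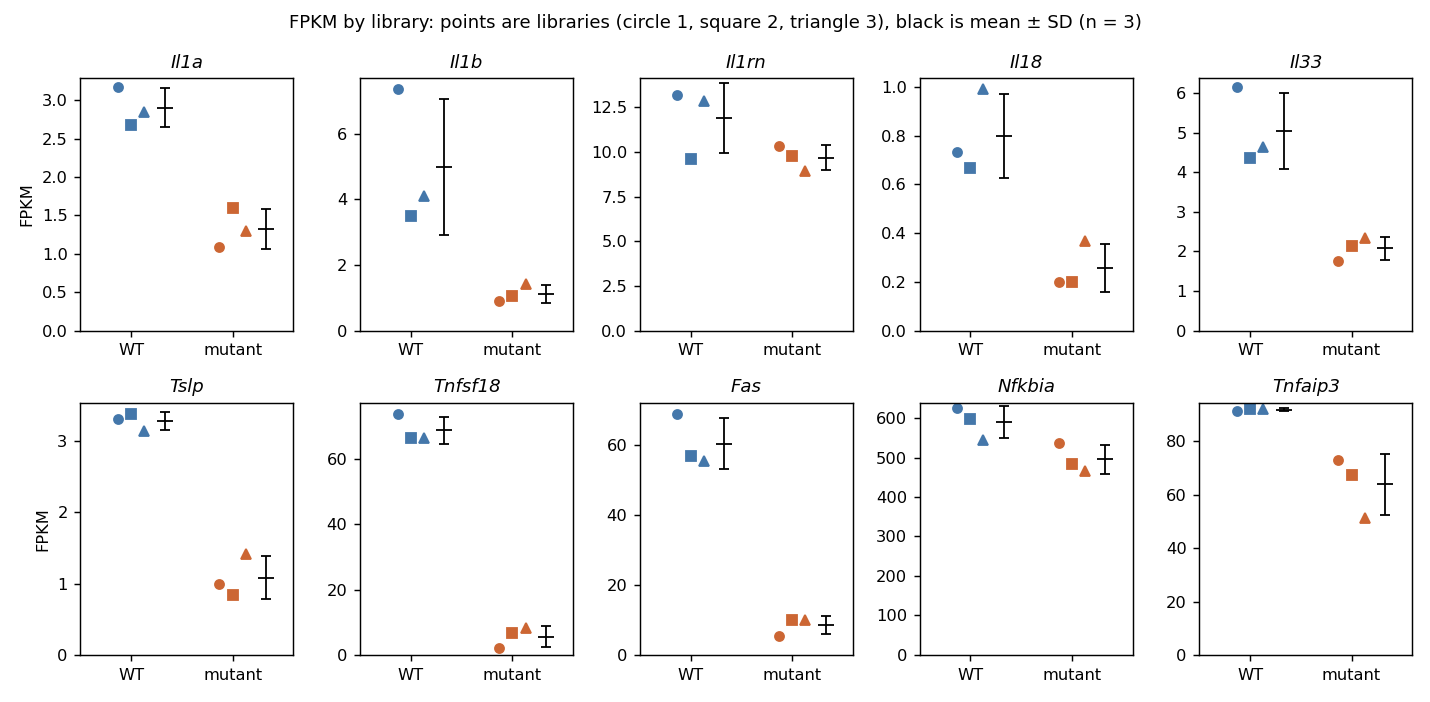
FPKM (vertical axis, from 0) of each of the 10 genes in the 3 WT (blue) and 3 mutant (orange) libraries, with the mean and SD (n = 3) in black. The groups are apart for every gene except Il1rn, and the gap relative to the WT level is largest for Tnfsf18 and Fas.

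Tnfsf18, the ligand gene of the TNF superfamily, showed the largest difference of the 10 genes. The table places it on chromosome 1 from 161494657 to 161505290 (GRCm38, plus strand). It was measured at 73.7, 66.4 and 66.4 FPKM in WT replicates 1 to 3 and at 1.99, 6.64 and 8.22 FPKM in mutant replicates 1 to 3. The WT libraries lay within a narrow range, whereas mutant replicate 1 was well under the other two mutant libraries. The means were 68.8 ± 4.19 and 5.62 ± 3.23 FPKM (SD, n = 3 each), a 12.25-fold decrease, with a log2 difference of -3.55 (SE 0.361, 95% interval -4.38 to -2.72, limma adjusted p = 0.000202). Ranked from the most negative difference, Tnfsf18 was number 12 of the tested genes. Without mutant replicate 1 the log2 difference was -3.06.

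Fas was the gene with the next largest difference and ranked as number 29 of the 11385 tested genes. It lies on chromosome 19 from 34290659 to 34327770 (plus strand). Its level was 69.0, 56.9 and 55.6 FPKM in the WT libraries and 5.51, 10.1 and 10.1 FPKM in the mutant libraries. Every mutant library was far below every WT library, with mutant replicate 1 again the lowest. The 7.08-fold decrease in the mean, 60.5 ± 7.39 against 8.55 ± 2.63 FPKM (SD, n = 3 each), had a log2 difference of -2.72 (SE 0.1998, 95% interval -3.18 to -2.26, limma adjusted p = 4.03e-05). The table also gives an interval around each value, whose level is not stated. Among the 10 genes, only for Fas and Tnfsf18 were these intervals apart between the groups: the lowest WT bound was 37.5 FPKM for Fas and 44.5 FPKM for Tnfsf18, and the highest mutant bounds were 15.1 and 11.2 FPKM.

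The upstream promoter sequences of Fas and Tnfsf18 are shown because these genes fell most, and both are from RefSeq (GRCm38.p6), the 250 bases before the annotated start on the strand of the gene. Capitals mark TGANTCA, the AP-1 consensus, in Fas (chr19:34290409-34290658, plus strand) and the reverse complement of GGAATG, the TEAD consensus, in Tnfsf18 (chr1:161494407-161494656, plus strand).
Fas: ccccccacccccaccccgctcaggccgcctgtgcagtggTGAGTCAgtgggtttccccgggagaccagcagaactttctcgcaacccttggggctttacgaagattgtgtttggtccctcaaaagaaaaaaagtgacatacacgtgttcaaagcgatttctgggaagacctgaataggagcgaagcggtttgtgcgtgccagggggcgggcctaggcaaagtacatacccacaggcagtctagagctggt
Tnfsf18: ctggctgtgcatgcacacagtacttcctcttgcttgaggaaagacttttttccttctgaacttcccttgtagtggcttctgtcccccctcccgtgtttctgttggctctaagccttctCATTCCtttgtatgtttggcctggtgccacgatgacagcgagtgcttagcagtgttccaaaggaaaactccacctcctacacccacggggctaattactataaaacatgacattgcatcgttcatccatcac
The match in Fas begins 211 bases before the start and that in Tnfsf18 132 bases before it. Both strands were searched, and matches to different motifs did not overlap in the windows of the 10 genes. Of 32851 windows of this length, 6.75% held TGANTCA and 12.6% held GGAATG. Windows were found for 9 of the 10 genes (all but Tslp), 13 in all because some genes have several starts, and 4 of the 13 held TGANTCA (Fas, Il1a, Il1rn and Tnfaip3) and 4 held GGAATG (1 of Il1rn, both of Il33 and that of Tnfsf18). A match is a string of letters and not a measured binding site.

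The signalling partners of these genes were measured in the same libraries. Fasl, the gene of the Fas ligand, did not exceed 0.0321 FPKM in any library. The adaptor gene Fadd, which links Fas to caspase 8, rose from 1.96 ± 0.103 to 3.35 ± 0.368 FPKM (limma adjusted p = 0.00207), and Casp8 rose from 10.5 ± 1.10 to 13.2 ± 0.0375 FPKM (limma adjusted p = 0.0115). Reads of Fadd and of its antisense transcript Faddos cannot be told apart unless the libraries keep strand, which is among the details not given in the sources used here. Tnfrsf18, the receptor of the Tnfsf18 product, was at 59.1, 57.0 and 51.0 FPKM in WT and at 39.3, 38.2 and 45.8 FPKM in mutant libraries. It fell 1.36-fold (log2 difference -0.43, limma adjusted p = 0.00514), a call that ended with libraries at the same total (adjusted p = 0.231). The ratio of receptor to ligand mRNA within a library, which no scaling of libraries can change, was 0.802, 0.858 and 0.768 in WT and 19.7, 5.75 and 5.57 in mutant libraries. The exact permutation test of this ratio gave p = 0.1 (two-sided), the smallest that 3 against 3 allows. Fadd, Casp8, Fasl and Tnfrsf18 were singled out as partners after their values were seen.

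Among the interleukin 1 ligands, Il1b had the largest difference. It was at 7.36, 3.49 and 4.10 FPKM in WT and at 0.895, 1.05 and 1.43 FPKM in mutant libraries. WT replicate 1 stood above the other WT libraries, and no mutant library reached the lowest WT value. The 4.43-fold decrease in the mean, 4.98 ± 2.08 against 1.13 ± 0.278 FPKM (SD, n = 3 each), had a log2 difference of -1.45 (SE 0.221, limma adjusted p = 0.00146). Without WT replicate 1 the log2 difference was -1.18 (limma adjusted p = 0.00101).

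Il1a, the ligand that keratinocytes store in the cell, was at 3.18, 2.68 and 2.85 FPKM in WT and at 1.09, 1.603 and 1.30 FPKM in mutant libraries. It fell 2.19-fold (log2 difference -0.75, SE 0.109, limma adjusted p = 0.00117). The antisense transcripts annotated over exons of Il1a and Il1b, Gm14023 and Il1bos, did not exceed 0.197 FPKM in any library. Il33, a nuclear alarmin of epithelial cells, was at 6.15, 4.37 and 4.63 FPKM in WT and at 1.76, 2.14 and 2.33 FPKM in mutant libraries, a 2.43-fold decrease (log2 difference -0.97, SE 0.127, limma adjusted p = 0.000679). The groups did not overlap for either gene, but the deposited intervals of their lowest WT and highest mutant values did.

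Il18, whose product is a caspase 1 substrate, was the lowest of the 10 genes, at 0.733, 0.666 and 0.992 FPKM in WT libraries, against 0.198, 0.198 and 0.369 FPKM in the mutant ones. The groups did not overlap, but the gene was under the level required for the test, and 3 of its 6 deposited intervals reached 0. With no filter on low values it passed as lower (log2 difference -0.52, limma adjusted p = 0.0066), where 14.1% of 18122 genes did.

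Il1rn, the gene of the receptor antagonist, did not follow the ligand genes past the threshold. It was at 13.2, 9.62 and 12.9 FPKM in WT and at 10.3, 9.79 and 8.94 FPKM in mutant libraries, and the groups overlapped. The log2 difference was -0.26 (SE 0.116, 95% interval -0.53 to 0.01, limma adjusted p = 0.0999), an interval that still allows a decrease. Without WT replicate 2, the lowest of the WT libraries, Il1rn passed as lower (log2 difference -0.394, adjusted p = 0.0103), and with libraries scaled to the same total its difference was 0.043. The ratio of Il1rn to Il1b mRNA within a library was 1.79, 2.76 and 3.13 in WT and 11.5, 9.33 and 6.24 in mutant libraries, and that of Il1rn to Il1a was 4.15, 3.59 and 4.52 in WT and 9.52, 6.11 and 6.90 in mutant libraries. Both ratios were higher in every mutant library than in every WT library (exact permutation p = 0.1 each, two-sided, the smallest possible). The antagonist mRNA was thus the more abundant per length in all 6 libraries, by a wider margin in the mutant ones.

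Tslp, an epithelial cytokine gene, was at 3.31, 3.38 and 3.13 FPKM in WT and at 0.987, 0.843 and 1.42 FPKM in mutant libraries. The WT values were close together and all mutant values were under them. The mean fell 3.02-fold (log2 difference -1.05, SE 0.116, limma adjusted p = 0.000306). The precision of single values was poor, since all 6 deposited intervals reached 0. The locus that the table gives for Tslp is wider than the annotated gene. It also covers Wdr36 and 4930455D15Rik, although neither shares exons with Tslp in the annotation. Of the receptor genes, Crlf2 fell from 4.49 ± 0.528 to 3.003 ± 0.361 FPKM (limma adjusted p = 0.00894; 0.276 with libraries scaled to the same total), and Il7r did not exceed 0.0734 FPKM. Both were singled out after their values were seen.

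**Figure D2:**
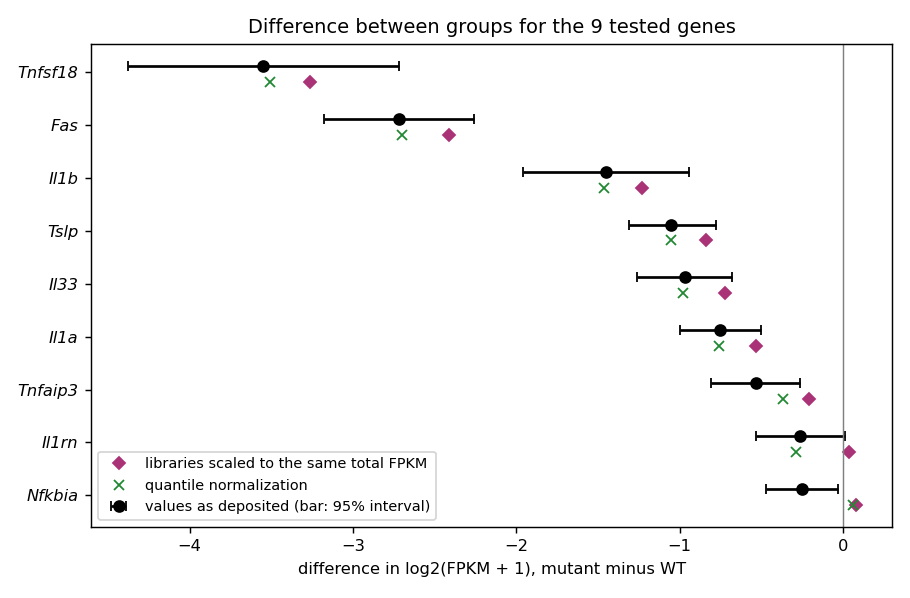
Difference in log2(FPKM + 1), mutant minus WT, for the 9 tested genes: black points with 95% intervals for the values as deposited, diamonds with libraries scaled to the same total FPKM and crosses after quantile normalization. Tnfsf18 at -3.55 and Fas at -2.72 lie farthest from 0, and Il1rn and Nfkbia have points on both sides of 0.

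The NF-κB feedback genes were the most abundant of the 10 and, with Il1rn, had the smallest differences among the 9 tested. Nfkbia was at 625, 598 and 545 FPKM in WT and at 537, 483 and 467 FPKM in mutant libraries. All mutant values were under the WT values by a small margin, with means of 590 ± 40.5 FPKM (WT) and 496 ± 36.8 FPKM (mutant; SD, n = 3 each). The log2 difference of -0.25 (SE 0.0937, 95% interval -0.47 to -0.03) did not pass (limma adjusted p = 0.0594), and its sign turned under quantile normalization (0.056) and with libraries scaled to the same total (0.081). Nfkbia passed as lower in 3 of 17 alternatives, without WT replicate 3 among them (adjusted p = 0.0406). The locus that the table gives for Nfkbia also covers 3 other genes of the table, none of which shares exons with it in the annotation.

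Tnfaip3 was at 91.3, 92.3 and 92.0 FPKM in WT and at 73.1, 67.3 and 51.2 FPKM in mutant libraries. The WT libraries were nearly equal and mutant replicate 3 was the lowest. The mean fell 1.44-fold (log2 difference -0.53, SE 0.1202, limma adjusted p = 0.00834). The call ended with libraries scaled to the same total (adjusted p = 0.337) and under quantile normalization (adjusted p = 0.0744).

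The promoters of Nfkbia (chr12:55492648-55492897, minus strand) and Tnfaip3 (chr10:19015411-19015660, minus strand) are shown because they alone, among the 13 windows, held the κB consensus, which 7.25% of all windows of this length held. They are again the 250 bases before the start in RefSeq (GRCm38.p6), 5′ to 3′ on the strand of the gene. Capitals mark the κB matches on either strand and, in Tnfaip3, also TGANTCA.
Nfkbia: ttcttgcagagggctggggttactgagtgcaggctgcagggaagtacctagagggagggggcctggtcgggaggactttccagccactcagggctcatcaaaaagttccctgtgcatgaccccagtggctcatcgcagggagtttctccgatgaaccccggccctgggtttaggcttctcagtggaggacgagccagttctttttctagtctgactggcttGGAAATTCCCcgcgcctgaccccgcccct
Tnfaip3: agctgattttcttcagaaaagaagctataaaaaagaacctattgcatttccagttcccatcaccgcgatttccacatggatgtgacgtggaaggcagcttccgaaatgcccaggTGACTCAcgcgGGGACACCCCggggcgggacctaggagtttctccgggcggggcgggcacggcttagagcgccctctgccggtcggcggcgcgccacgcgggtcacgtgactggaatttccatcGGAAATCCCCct
The κB match of Nfkbia begins 29 bases before the start, and those of Tnfaip3 begin 125 and 12 bases before it. The TGANTCA match of Tnfaip3 begins 136 bases before the start.

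Levels of the 10 genes spanned a wide range, and their order differed between groups. In WT libraries the order by mean FPKM was Nfkbia (590), Tnfaip3 (91.9), Tnfsf18 (68.8), Fas (60.5), Il1rn (11.9), Il33 (5.05), Il1b (4.98), Tslp (3.27), Il1a (2.90) and Il18 (0.797). Values of neighbours in this order overlapped between libraries for Tnfsf18 and Fas, for Il33 and Il1b, and for Tslp and Il1a. In mutant libraries Il1rn (9.69) came next after Nfkbia and Tnfaip3, ahead of Fas (8.55) and Tnfsf18 (5.62), and the values of these neighbours overlapped. Library by library, mutant replicate 1 was the lowest mutant library for 5 of the 10 genes (Il1a, Il1b, Il33, Tnfsf18 and Fas) and the highest for Il1rn, Nfkbia and Tnfaip3. WT replicate 1 was the highest WT library for 7 of the 10.

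Genes whose pattern over the 6 libraries was closest to each gene were found by the root mean square difference of log2(FPKM + 1) values centred on each gene's mean, among 8218 named genes whose mean was 5 FPKM or more. For Fas these were Sprr2k, a small proline-rich cornified envelope protein gene (0.102), and Ch25h, cholesterol 25-hydroxylase (0.143). For Tnfsf18 they were the interferon-inducible gene Ifi202b (0.400) and the integrin subunit gene Itgb6 (0.514), and no gene came within 0.2. For Il1b they were the transcription factor gene Cebpd (0.157) and Sertad1 (0.180). For Il33 the closest were Tppp3 (0.0566) and Rhoc (0.0602), for Il1a Adora2b (0.0548) and Cpxm2 (0.0652), and for Tslp Htra1 (0.0427) and the β-defensin gene Defb1 (0.0515). Among the genes with small differences, Bgn and Sbsn lay nearest to Il1rn, Tmem176a and Cd55 to Nfkbia, and Prpf39 and Nfat5 to Tnfaip3. Close neighbours were absent for Tnfsf18 and few for Fas (5 genes within 0.2) and Il1b (3). They were many for the other tested genes, from 331 for Tslp to 3928 for Nfkbia. With 2 groups of 3 libraries, this likeness is mainly that of the group difference.

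The NF-κB factors themselves were lower in mutant libraries. Of 33 further NF-κB factors, kinases and feedback genes, 32 were tested, and 17 were lower and 5 higher (median log2 difference -0.21, beside 0.01 for all genes). Of all tested genes, 22.8% were lower and 23.2% higher. With libraries scaled to the same total, 8 of the list were lower and 7 higher, beside 839 lower and 5396 higher of all 11413 genes tested. Rela, which encodes the p65 subunit, was at 180, 166 and 173 FPKM in WT and at 68.7, 67.5 and 74.6 FPKM in mutant libraries. The groups were far apart, and the mean fell 2.46-fold (log2 difference -1.29, SE 0.0663, limma adjusted p = 9.68e-06). Relb fell from 42.5 ± 3.58 to 19.3 ± 2.09 FPKM (limma adjusted p = 7.51e-05). The precursor subunit genes Nfkb1 and Nfkb2 fell from 75.7 ± 0.954 to 47.1 ± 1.22 FPKM and from 67.7 ± 2.33 to 38.5 ± 2.01 FPKM. Exons of Nfkb2 overlap those of Psd on the other strand, so its value may include reads of that gene. These 4 subunit genes, which are named by the fixed rule, passed as lower in each of the 17 alternatives.

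Other genes of the list are named after their values were seen. Rel, the remaining subunit gene, decreased from 23.3 ± 1.28 to 15.1 ± 0.657 FPKM, and this call ended with libraries scaled to the same total (adjusted p = 0.0804). Bcl10, an adaptor that carries receptor signals to the IκB kinases, fell 1.86-fold, Bcl3, an atypical IκB protein, fell 1.87-fold (its exons overlap those of a predicted gene on the other strand), and Tnip1, a partner of A20, fell 1.67-fold. Nfkbiz, which encodes the inducible IκBζ, rose from 32.0 ± 1.40 to 48.9 ± 12.3 FPKM (limma adjusted p = 0.02), with mutant values of 61.5, 48.4 and 37.0 FPKM; its call ended without WT replicate 1, without WT replicate 2 or without mutant replicate 2. Chuk and Ikbkg, genes of subunits of the IκB kinase complex, rose by 1.27-fold and 1.25-fold, and exons of Ikbkg overlap those of G6pdx on the other strand. Ikbkb, the gene of another subunit, did not pass (log2 difference 0.13), but was called higher with libraries scaled to the same total (adjusted p = 0.0216). The ratio of Nfkbia to Rela mRNA within a library was 3.48, 3.61 and 3.16 in WT and 7.82, 7.16 and 6.26 in mutant libraries (exact permutation p = 0.1, two-sided, the smallest possible). The inhibitor mRNA was thus higher relative to that of its target in each mutant library than in any WT library.

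**Figure D3:**
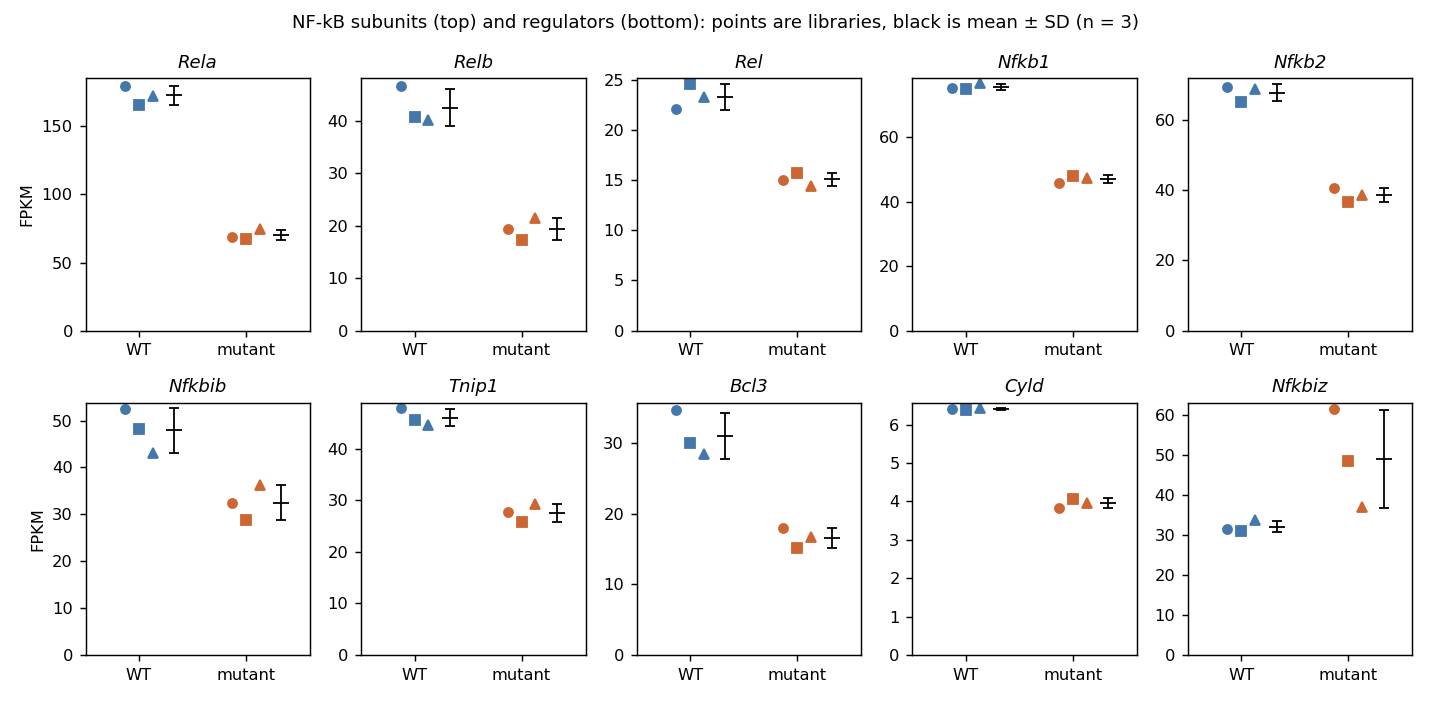
FPKM (vertical axis, from 0) of the 5 NF-κB subunit genes (top) and of 5 regulators (bottom) in the WT (blue) and mutant (orange) libraries, with the mean and SD (n = 3) in black. All 5 subunit genes are lower in the 3 mutant libraries than in the 3 WT libraries, and Nfkbiz is higher with a wide spread.

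Receptors and signalling genes of the interleukin 1 family were called lower at about the share of all genes. Of 36 genes, 22 were tested, and 5 were lower, where 22.8% of all tested genes were, and 2 were higher, where 23.2% were (median 0.01). The count of called genes was 12 rather than 7 with library weights. With libraries scaled to the same total, 1 was lower and 8 higher, beside 839 lower and 5396 higher of all 11413 genes. The balance of directions thus depended on the scaling, as it did for all genes. Il1r2, the decoy receptor gene, fell from 1.69 ± 0.295 to 0.691 ± 0.0691 FPKM (limma adjusted p = 0.00234). Pycard, the adaptor gene of inflammasomes, rose 1.80-fold from 22.4 ± 2.10 to 40.3 ± 1.79 FPKM (limma adjusted p = 0.000143), and its exons overlap those of the predicted antisense gene Gm45205. Gsdmd, which encodes the pore-forming gasdermin D, fell from 3.05 ± 0.288 to 1.88 ± 0.0758 FPKM, a call that ended with the same-total scaling (adjusted p = 0.0944). Il1f5, the gene of the interleukin 36 receptor antagonist, was at 18.1 ± 0.825 and 14.7 ± 0.367 FPKM (limma adjusted p = 0.00515), and its difference changed sign with the same-total scaling (0.024). The signalling receptor gene Il1r1 and the interleukin 33 receptor gene Il1rl1 are named after their values were seen: the former fell from 8.46 ± 0.782 to 6.63 ± 0.271 FPKM (limma adjusted p = 0.0134; 0.933 with the same-total scaling), and the latter did not exceed 0.247 FPKM in any library.

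Several other TNF superfamily genes were also lower. Of the 44 other ligand and receptor genes found in the table, 16 were tested, and 7 were lower and 2 higher (median -0.10). Of all tested genes, 22.8% were lower and 23.2% higher. The same-total scaling gave 4 lower and 4 higher, beside 839 lower and 5396 higher of all 11413 genes. Tnfrsf12a, the receptor of TWEAK, was at 544, 460 and 418 FPKM in WT and at 91.2, 96.1 and 125 FPKM in mutant libraries. It fell 4.56-fold (log2 difference -2.18, SE 0.139, limma adjusted p = 2.29e-05). The ligand gene Tnfsf4 and its receptor gene Tnfrsf4, which encode OX40 ligand and OX40, fell 3.58-fold and 2.79-fold (limma adjusted p = 0.000222 and 2.43e-05). Tnfsf15 fell from 11.1 ± 0.661 to 3.71 ± 0.946 FPKM (limma adjusted p = 0.000214). These 4 calls were kept in every alternative in which the genes were tested. Tnf itself, chosen once values were known, had means of 18.1 ± 2.71 FPKM (WT) and 17.1 ± 3.17 FPKM (mutant; limma adjusted p = 0.676), and the TNF receptor gene Tnfrsf1a was at 84.6 ± 3.09 and 79.6 ± 3.94 FPKM (limma adjusted p = 0.285).

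Downstream of the death receptors, directions were mixed. Of 27 genes, 24 were tested, and 11 were higher and 5 lower (median 0.16), where 23.2% of all tested genes were higher and 22.8% lower. The split became 16 higher and 0 lower with libraries scaled to the same total, beside 5396 higher and 839 lower of all 11413 genes. Dffa, the inhibitor and chaperone of the apoptotic nuclease, rose 1.56-fold (limma adjusted p = 0.000324), and Casp9, the initiator caspase gene of the mitochondrial pathway, rose 1.604-fold (limma adjusted p = 0.000696), although its exons overlap those of annotated genes on the other strand. Birc3, an inhibitor of apoptosis that acts in TNF receptor complexes, fell 1.41-fold (limma adjusted p = 0.000588). Ripk1, a kinase of the same complexes, fell 1.38-fold (limma adjusted p = 0.000937), and its exons overlap those of Serpinb6a on the other strand. The calls of Birc3 and Ripk1 ended with the same-total scaling (adjusted p = 0.219 and 0.386).

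**Figure D4:**
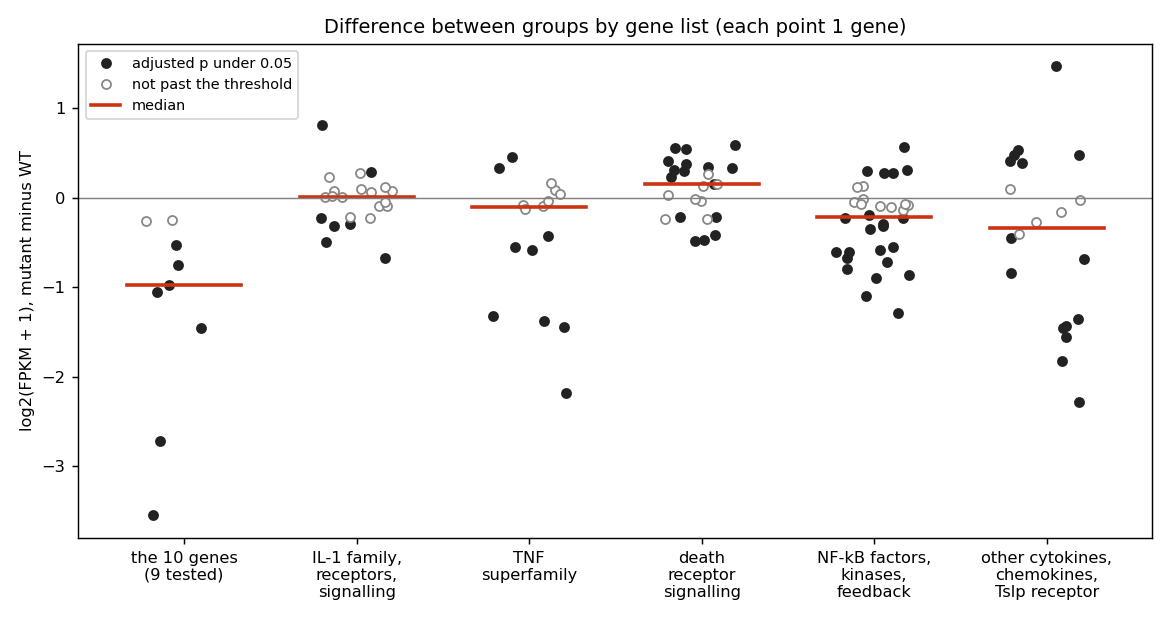
Difference in log2(FPKM + 1), mutant minus WT, of each tested gene in the set of 10 and in 5 lists of related genes; filled points passed an adjusted p of 0.05 and red lines are medians. The median is -0.97 for the 9 tested genes of the set and between -0.34 and 0.16 for the 5 lists.

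Other cytokine and chemokine genes differed in both directions. Of 42 genes, 20 were tested, and 9 were lower and 6 higher (median -0.34), where 22.8% of all tested genes were lower and 23.2% higher. The same-total scaling gave 7 of each, beside 839 lower and 5396 higher of all 11413 genes. Il34, a ligand of the macrophage growth factor receptor, was at 8.16, 8.44 and 8.69 FPKM in WT and at 27.0, 26.4 and 22.5 FPKM in mutant libraries, a 2.999-fold increase (log2 difference 1.47, SE 0.0781, limma adjusted p = 1.02e-05). The annotation places predicted genes on the other strand over exons of Il34. The chemokine gene Cxcl16 fell 3.67-fold, from 58.0 ± 5.07 to 15.8 ± 2.99 FPKM (limma adjusted p = 2.87e-05). Ccl27a, a skin chemokine gene that attracts T cells, fell 1.85-fold (limma adjusted p = 9.96e-05). Exons of Cxcl16 and Ccl27a overlap those of Zmynd15 and Il11ra1 on the other strand. Ccl4, a chemokine gene of myeloid and mast cells, was at 7.31, 3.98 and 4.11 FPKM in WT and at 0.385, 0.0956 and 0.214 FPKM in the mutant ones (limma adjusted p = 0.0001). The monocyte and myeloid chemokine genes Ccl2, Ccl3 and Ccl7, chosen once values were known, fell 3.95-fold, 12.4-fold and 4.21-fold (limma adjusted p = 0.0152, 0.000954 and 0.00254). Their log2(FPKM + 1) differences were -1.55, -1.43 and -1.45, so the large fold of Ccl3 is a ratio of low values. The fold of Ccl2 was 2.61 without WT replicate 1, which had 14.9 FPKM beside 4.76 and 7.01 FPKM in the other WT libraries. Il23a, likewise chosen once values were known, decreased from 19.9 ± 3.75 to 7.21 ± 1.62 FPKM, whereas Cxcl14, the most abundant gene of the list, was at 561 ± 17.6 and 555 ± 44.4 FPKM (limma adjusted p = 0.883). Cxcl14 was called higher with the same-total scaling (log2 difference 0.31, limma adjusted p = 0.00751) and under quantile normalization (0.31, adjusted p = 0.00985).

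Markers of other cells that the sort could hold were measured in the same libraries, and many of their calls depended on the scaling or on single libraries. Of 22 T cell, Langerhans cell and macrophage markers, 21 were in the table and 8 were tested, with 3 lower and 0 higher, where 22.8% of all tested genes were lower. The 3 calls, of Cd68, Fcer1g and C1qc, ended with the same-total scaling (adjusted p = 0.279, 0.353 and 0.158), and those of Fcer1g and C1qc changed in 9 and 10 of 16 alternatives. The summed level was between 19.2 and 25.5 FPKM in WT and between 15.8 and 17.8 FPKM in mutant libraries. Cd207, a marker of Langerhans cells, was listed at 0 in every library, and Ptprc and the Cd3 genes were among 10 markers under 1 FPKM in every library. At E18.5 the value of Cd207 does not show that cells of the Langerhans lineage were absent.

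Of 6 mast cell markers, 4 were tested and all 4 were lower, where 22.8% of all tested genes were. The sum of the 6 was between 27.7 and 60.9 FPKM in WT and between 16.0 and 25.6 FPKM in mutant libraries. The calls of Cpa3 and Mcpt4 changed in 6 of 17 and 7 of 16 alternatives and that of Cma1 in 3 of 17, whereas Tpsb2 kept its call in all 17. For 9 dermal fibroblast markers, the sums were between 439 and 594 FPKM and between 339 and 381 FPKM, with 3 of 8 tested genes lower, again beside 22.8%. Of the 3 lower genes, Thy1 kept its call in all 17 alternatives, Vim changed in 5 of 17, and Dcn changed in 9 of 17. The log2 difference of Dcn was 0.02 under quantile normalization. The erythroid sum was between 222 and 288 FPKM in WT and between 82.8 and 148 FPKM in mutant libraries. There, 3 of 5 tested genes were lower, again beside 22.8%. Hbb-b1 and Hbb-b2 kept their calls in all 17 alternatives, whereas that of Alas2 changed in 6 of 16. Hba-a1 and Hba-a2 did not pass, with log2 differences of -2.76 and 0.75. The melanocyte sum was between 16.4 and 22.5 FPKM and between 11.9 and 15.6 FPKM, and the endothelial sums, between 1.58 and 4.18 FPKM and between 0.926 and 2.20 FPKM, overlapped. WT replicate 1 was the highest library in the immune, mast cell, fibroblast, melanocyte and endothelial sums, as it was for Il1b, Ccl2, Ccl3, Ccl4 and Ccl7, but it was the lowest WT library in the erythroid sum. The part of these cells in the differences of the cytokine genes was not tested.

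**Figure D5:**
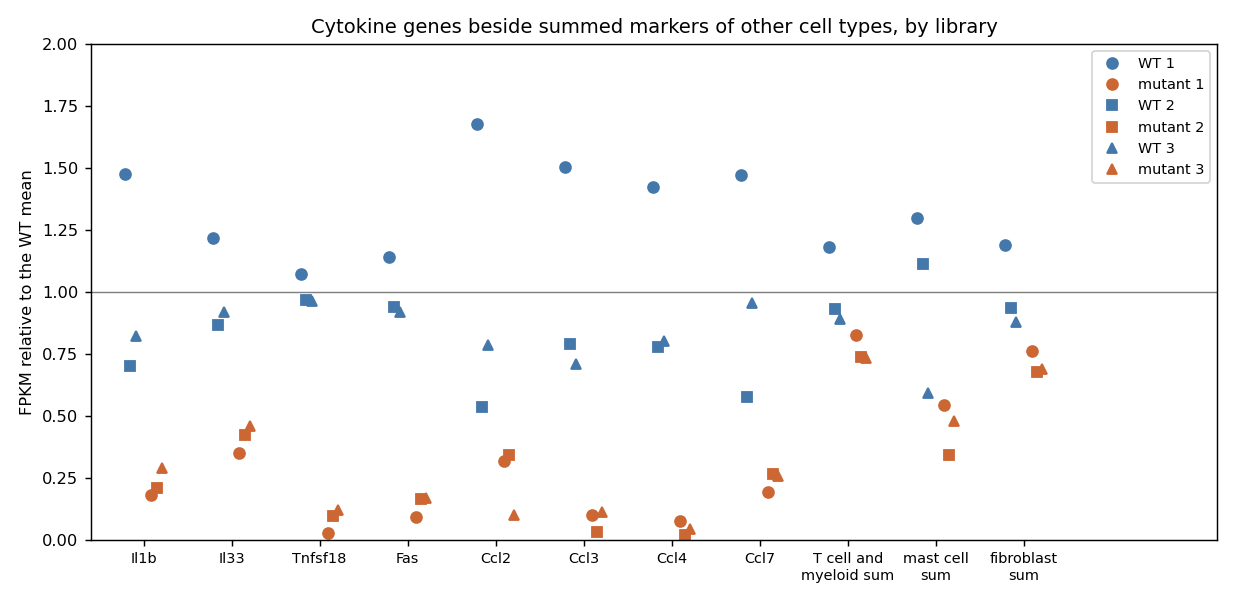
FPKM of 4 of the genes, of 4 chemokine genes and of 3 sums of cell type markers in each library, relative to the mean of the 3 WT libraries (vertical axis, linear; blue WT, orange mutant; circle, square and triangle are replicates 1, 2 and 3). Mutant libraries lie under all WT libraries for each gene and sum, and WT replicate 1 is the highest library in each.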

How the data were processed

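RNA was taken from cells sorted by flow cytometry, extracted with a commercial kit and made into Illumina libraries, per the labels' protocols. The authors deposited FPKM values in 1 table for all libraries, each with both bounds of an interval. The submitters' processing notes name TopHat and Cufflinks. Not given in the sources used here: versions, library scaling, strand and read totals. The notes name the build mm9, but 98.9% of 23315 symbols overlapped the gene of that name in GENCODE M21 (GRCm38), so positions are read as GRCm38, with 1 added to each start.

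Genes averaging 1 FPKM or more were tested with limma 3.58.1 (R 4.3.3; empirical Bayes with a trend) on log2(FPKM + 1), two-sided, with Benjamini-Hochberg adjustment over all 11385 of them and a threshold of 0.05. The offset of 1 understates the change of low genes. Folds are ratios of mean FPKM. Single ratios were tested by exact permutation (scipy 1.17.1). The fit was run on simulated data drawn from its own fitted means and variances, with few genes changed. In the real data 46% of tested genes were called, so that run does not check the calls made here. The 10 genes and the 5 lists of related genes were chosen with earlier results of these data known. From each list up to 4 genes are named, those past the threshold by smallest p and then by level; for each tested gene the 2 closest in pattern are named. In 4 of 36 entries older symbols (Il1f5, Il1f6, Il1f8 and Il1f9) were matched. Alternatives covered the pseudocount, filter, scaling, variance prior, library weights, a replicate block and leaving out each library. Scaling to the same total without small RNAs was added after the data were seen.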

Additional observations from a re-analysis of the deposited data

How the results depend on the processing

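Fas, Tnfsf18, Il1a, Il1b, Il33 and Tslp were lower and past the threshold in each of the 16 or 17 alternatives in which they were tested. The count of genes of the set that were lower was 7, was 3 with a filter at a mean of 5 FPKM, which leaves out the low cytokine genes, and lay between 7 and 8 when single libraries were left out; 0 were higher throughout. Il1rn turned to 0.043 with libraries scaled to the same total and to 0.074 when small RNAs were left out of that total; Nfkbia turned to 0.081 and 0.115 in the same settings and to 0.056 under quantile normalization; Il1f5 turned to 0.024 and 0.057. Relative to the median gene, the same-total differences were -0.26 for Il1rn and -0.22 for Nfkbia. That scaling gave 86.5% higher among all called genes against 50.5% as deposited. The list of interleukin 1 receptors and signalling genes held 7 called genes, and 12 with library weights and 11 with small RNAs left out of the total; the cause was not tested. Over all genes, 5234 were called, and between 3879 and 5108 when single libraries were left out.

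Deviations from the group means correlated across genes by 0.127, 0.122 and -0.00735 for equal replicate numbers 1, 2 and 3. For unequal numbers they correlated by between -0.157 and 0.0619. With 3 libraries per group, these values cannot decide whether the numbers pair the samples. With a replicate block, 7 genes of the set were lower, 10 rather than 16 death receptor signalling genes were called, and 3798 genes in all. Read depth is unknown. The deposited intervals of Il18 and Tslp reached 0 in 3 and 6 libraries, those of the other 8 genes in 0; the cause was not tested.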
